A study of Mus musculus with 30 samples.

Results

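The second hour of the response of mouse macrophages to lipopolysaccharide (LPS) was compared with the first. LPS is a component of the outer membrane of Gram-negative bacteria. The comparison used 14 of the 30 RNA-seq libraries of the series, chosen by their labels: the 2 h and 1 h libraries of the 7 cultures that received the vehicle DMSO. The labels name these cultures r1, r2, UKD and D3 to D6. Each culture gave 1 library at 2 h and 1 at 1 h, so every change was measured within a culture. The series asks how a β2 adrenergic agonist alters the early response of macrophages, and the vehicle cultures form its untreated time course.

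The cells were bone marrow-derived macrophages, grown for 6 days from the marrow of wild-type (WT) C57Bl/6 mice in medium with culture-derived M-CSF, the growth factor that drives macrophage differentiation. All 14 libraries came from cells that had first been held in DMSO for 2 h. The 2 h group then received LPS, labelled 100 ng/µL, for 2 h (n = 7), and the 1 h group received the same LPS for 1 h (n = 7). Libraries of the same 7 cultures without LPS (0 h, n = 7) are described beside them. They were in no test of the main comparison and entered 1 alternative fit. The agonist metaproterenol hemisulfate (MPH, 1 µM for 2 h before LPS) was given to 3 cultures labelled M2, M3 and M4, which enter 1 comparison at the end. The labels do not say whether these share a preparation with any DMSO culture, and the fit took them as separate. The labels do not say whether a culture is a separate animal. The p-values therefore set the mean within-culture change against its spread among these cultures only. Such primary cultures are made of marrow cells differentiated outside the animal, and pooled RNA from a whole culture cannot tell fewer cells of a kind from less RNA per cell.

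LPS is recognised by Toll-like receptor 4 with its partners CD14 and MD-2, and the signal runs through the adaptors MyD88 and TRIF to the kinases of the MAPK pathway and to the factors NF-kB and IRF3. Immediate-early genes need no new protein synthesis for their transcription, and many of their short-lived mRNAs encode transcription factors, phosphatases and RNA-binding proteins that limit the response. Later genes depend on chromatin remodelling, on newly made factors or on interferon beta, which is secreted and acts back on the cells through JAK and STAT proteins.

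Sequences of genes that rose and of genes that fell are shown first. Those shown were chosen because they carry recognisable elements in their 3′ UTRs or promoters, and other genes that changed most do not. Sites of up to 30 bases around the AU-rich nonamer TTATTTATT, the element bound by tristetraprolin (the product of Zfp36, which promotes mRNA decay), were read from GENCODE M21 transcripts. The nonamer is in capitals.
Fos: gttttcaatTTATTTATTaagatggat
Dusp1: agctggtccTTATTTATTtaacacccc
Zfp36: atgacgactTTATTTATTgtattaaga
Zfp36l2: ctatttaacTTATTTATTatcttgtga
Il27: cttggatatTTATTTATTtttaagaaa
Cxcl3: tatcagttgTTATTTATTgaaatggtc
The first 4 of these genes (on chromosomes 12, 17, 7 and 17) fell at 2 h, and Il27 and Cxcl3 (chromosomes 7 and 5) rose. The Dusp1 and Il27 3′ UTRs each held 2 copies of the nonamer, of which the first is shown, and the other 4 held 1. Among the 12 largest rises, the nonamer was absent from the 3′ UTRs of Il12b, Ccl5, Rsad2, Ccl17, Hivep3, Cmpk2 and Mx2. Among the 12 largest falls, Jun, Ier3, Btg2, Arhgap25 and Hhex lacked it.

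Promoter windows (250 bases before to 50 bases after a gene's start, RefSeq, GRCm38.p6) are given for 3 genes that rose at 2 h and 3 that fell. Rsad2 lies at chr12:26456403-26456702 (minus strand), Cxcl10 at chr5:92348840-92349139 (minus strand), Cxcl3 at chr5:90785851-90786150 (plus strand), Dusp1 at chr17:26508423-26508722 (minus strand), Btg2 at chr1:134079106-134079405 (minus strand) and Zfp36 at chr7:28379179-28379478 (minus strand). Capitals mark matches, on either strand, to the interferon-response type GAAANNGAAA, the AP-1 motif TGANTCA, the cAMP-response element (CRE) TGACGTCA, the kB motif of NF-kB and the CArG motif of serum response factor, and to TATAAA on the gene's strand between bases 206 and 235 of the window.
Rsad2: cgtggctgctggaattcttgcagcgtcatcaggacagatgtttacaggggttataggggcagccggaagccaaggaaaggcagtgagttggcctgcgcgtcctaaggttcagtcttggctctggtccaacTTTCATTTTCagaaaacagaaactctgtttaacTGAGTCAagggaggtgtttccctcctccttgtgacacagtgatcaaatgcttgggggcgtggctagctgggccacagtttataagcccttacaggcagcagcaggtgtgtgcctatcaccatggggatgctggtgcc
Cxcl10: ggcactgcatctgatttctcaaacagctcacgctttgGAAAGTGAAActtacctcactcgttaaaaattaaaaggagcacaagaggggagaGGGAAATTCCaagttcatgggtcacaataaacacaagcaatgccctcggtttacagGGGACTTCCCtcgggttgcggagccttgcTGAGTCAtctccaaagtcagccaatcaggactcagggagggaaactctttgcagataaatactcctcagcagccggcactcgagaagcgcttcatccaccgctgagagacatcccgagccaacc
Cxcl3: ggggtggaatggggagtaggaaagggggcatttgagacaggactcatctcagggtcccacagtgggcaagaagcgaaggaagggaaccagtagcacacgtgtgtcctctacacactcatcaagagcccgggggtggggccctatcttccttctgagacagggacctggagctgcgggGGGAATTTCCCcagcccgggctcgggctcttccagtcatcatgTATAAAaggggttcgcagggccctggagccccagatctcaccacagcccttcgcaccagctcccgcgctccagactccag
Dusp1: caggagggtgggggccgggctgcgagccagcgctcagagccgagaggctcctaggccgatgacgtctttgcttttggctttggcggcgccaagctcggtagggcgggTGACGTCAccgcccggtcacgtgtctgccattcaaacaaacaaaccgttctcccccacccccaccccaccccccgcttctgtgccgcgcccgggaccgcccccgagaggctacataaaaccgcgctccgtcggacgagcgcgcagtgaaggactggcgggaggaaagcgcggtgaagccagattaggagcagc
Btg2: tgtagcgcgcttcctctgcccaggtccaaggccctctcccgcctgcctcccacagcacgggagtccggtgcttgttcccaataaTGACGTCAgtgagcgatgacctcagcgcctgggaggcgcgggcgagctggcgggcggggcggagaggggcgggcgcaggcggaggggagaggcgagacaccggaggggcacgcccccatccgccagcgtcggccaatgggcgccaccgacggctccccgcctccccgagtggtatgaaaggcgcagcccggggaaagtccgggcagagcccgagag
Zfp36: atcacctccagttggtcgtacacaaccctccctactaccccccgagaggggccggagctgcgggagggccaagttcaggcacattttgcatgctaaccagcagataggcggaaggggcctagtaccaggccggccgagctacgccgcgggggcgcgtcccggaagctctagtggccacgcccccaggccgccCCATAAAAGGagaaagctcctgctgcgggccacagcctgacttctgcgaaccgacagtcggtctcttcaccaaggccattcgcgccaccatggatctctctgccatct
Among 22862 RefSeq windows of genes with 1 annotated start, 3.58% held the interferon-response type, 7.98% the AP-1 motif, 1.85% the CRE, 4.26% the kB motif, 1.53% the CArG motif and 2.58% TATAAA at that position. Windows were held for 65.3% of the genes that rose at least 2-fold and for 48.5% of those that fell at least 2-fold, too few for motif shares to be compared between groups, and that check is void. A match is a description of the letters and not evidence of binding. The windows shown were chosen for holding matches, and Cxcl10 is not among the 12 largest rises. Of the genes that changed most, Il12b, Ccl17, Hivep3, Cmpk2, Jun and Hhex had windows without any match. Those of AW112010, Fos, Ier3 and Cxcr4 held matches and are not shown.

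Levels are given in RPKM, which divides reads by the length of the transcript and the size of the library. Estimated depth ran from 18 to 92.1 M reads at 2 h and from 5.4 to 71.6 M reads at 1 h. D6, UKD and D4 had the least depth at 1 h, with 5.4, 8.5 and 9.7 M reads, and in D6 at 1 h a single read on 2 kb of transcript was worth 0.0926 RPKM. Macrophage markers were present in every library: the summed level of the 16 markers was 8230 to 12500 RPKM at 2 h and 8590 to 13000 RPKM at 1 h. The 10 neutrophil markers summed to 7.16 to 92.7 RPKM at 2 h and 5.83 to 91.4 RPKM at 1 h, of which 5 passed the filter and none changed (limma), and S100a9 was the highest of them. Summed B cell, T and NK cell, and dendritic cell markers stayed at or below 1.07 RPKM, and stromal and erythroid or mast cell markers at or below 3.28 RPKM.

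Of the 9863 genes that reached 1 RPKM in 3 or more of the 14 libraries, 1181 were higher at 2 h (12% of genes tested) and 2952 were lower (29.9%), so that 41.9% passed an adjusted p of 0.05 in a limma fit paired by culture. This split moved with the scaling. When libraries were rescaled by the median of ratios, which moved the median change of all genes to 0 from -0.09 on the log2 scale, 1798 genes were higher and 1945 lower, and the higher share of the calls was 48% in place of 28.6%. Most calls were small. A change of at least 2-fold was reached by 199 higher genes (2.02%) and 132 lower genes (1.34%), and these counts were 239 and 115 after rescaling. They moved with the value added before the log, which was 0.5: adding 0.1 gave 244 higher and 211 lower genes, and adding 1 gave 161 and 86. The direction was the same in all 7 cultures for 790 of the higher and 2032 of the lower genes. For 298 genes (3.02%), the 7 libraries at 2 h did not overlap with the 7 at 1 h, 88 of them higher (0.892%) and 210 lower (2.13%) at 2 h.

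**Figure D1:**
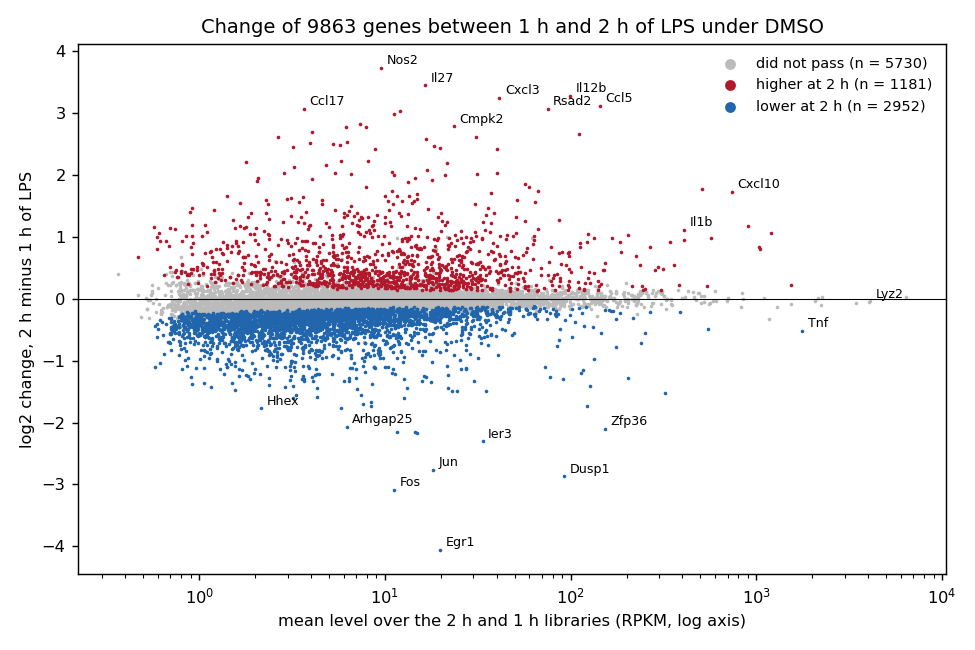
Change against level for the 9863 genes tested. The horizontal axis is the mean level over 2 h and 1 h libraries in RPKM (log axis), the vertical axis the log2 change of 2 h minus 1 h, and each point is a gene, red where it was higher at 2 h (1181), blue where it was lower (2952) and grey where it did not pass. Nos2 at 3.73 and Egr1 at -4.06 are the extremes.

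Cultures differed in the size of the change. Among the 12 largest rises and 12 largest falls, D3 had the smallest change of the 7 cultures in 19 of 24 genes and UKD had the largest in 11. These 24 genes were chosen with 1 direction in all 7 cultures. The median change of the 12 rises was 1.29 in D3 and 4.37 in UKD, with the other 5 cultures between 2.75 and 3.86 on the log2 scale. The 12 falls had medians of -1.62 in D3 and -3 in UKD, with the others between -2.03 and -2.67. At 2 h, D3 still had the highest Egr1 (11.6 RPKM), Fos (7.91 RPKM) and Dusp1 (99.4 RPKM) of the 7 and the lowest Nos2 (0.23 RPKM) and Il12b (10.9 RPKM). The r1 culture stood at the other side at 1 h, with the lowest Egr1 (3.98 RPKM), Fos (3.76 RPKM) and Dusp1 (72.2 RPKM) and the highest Il12b (133 RPKM). Without D3, 1440 genes were higher and 3279 lower, of which 240 and 170 at least 2-fold. Without r1, 1049 genes were higher and 2487 lower.

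**Figure D2:**
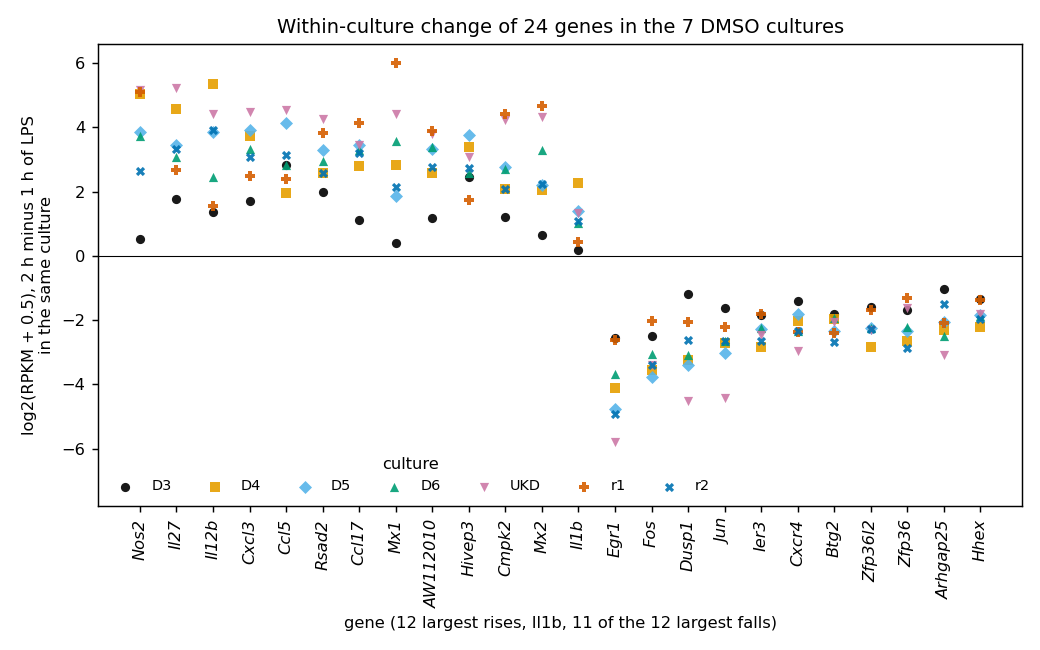
Within-culture change of the 12 largest rises, Il1b and 11 of the 12 largest falls. The vertical axis is the difference in log2(RPKM + 0.5) between 2 h and 1 h, and each point is 1 of 7 cultures. All 7 points lie on the same side of 0 for each gene, and the D3 points (black circles) are often the nearest to 0.

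The 132 genes that fell at least 2-fold were of different kinds when set beside the 0 h level of the same cultures. The 1 h libraries enter both differences, so the split is a description. Of the 132, 32 had stood at least 2-fold above 0 h at 1 h, 90 within 2-fold of it and 10 already at least 2-fold below it. The 32 had median levels of 4.12 RPKM at 0 h, 34.4 RPKM at 1 h and 12.6 RPKM at 2 h, and 20 of them were still at least 2-fold above 0 h at 2 h. The 90 had median levels of 6.92 RPKM at 0 h, 5.37 RPKM at 1 h and 2.02 RPKM at 2 h, and 79 of them were at least 2-fold below 0 h at 2 h. Over all 9863 genes, 387 were at least 2-fold below and 516 at least 2-fold above 0 h at 2 h. Among the 132, 90 ended at least 2-fold below 0 h.

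Of the 199 genes that rose at least 2-fold, 72 were already at least 2-fold above 0 h at 1 h, 125 were within 2-fold of 0 h and 2 were below it. The 72 had median levels of 1.72 RPKM at 0 h, 7.95 RPKM at 1 h and 28.9 RPKM at 2 h. The 125 had median levels of 2.53 RPKM at 0 h, 3.07 RPKM at 1 h and 9.54 RPKM at 2 h. At 2 h, 190 of the 199 were at least 2-fold above 0 h.

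**Figure D3:**
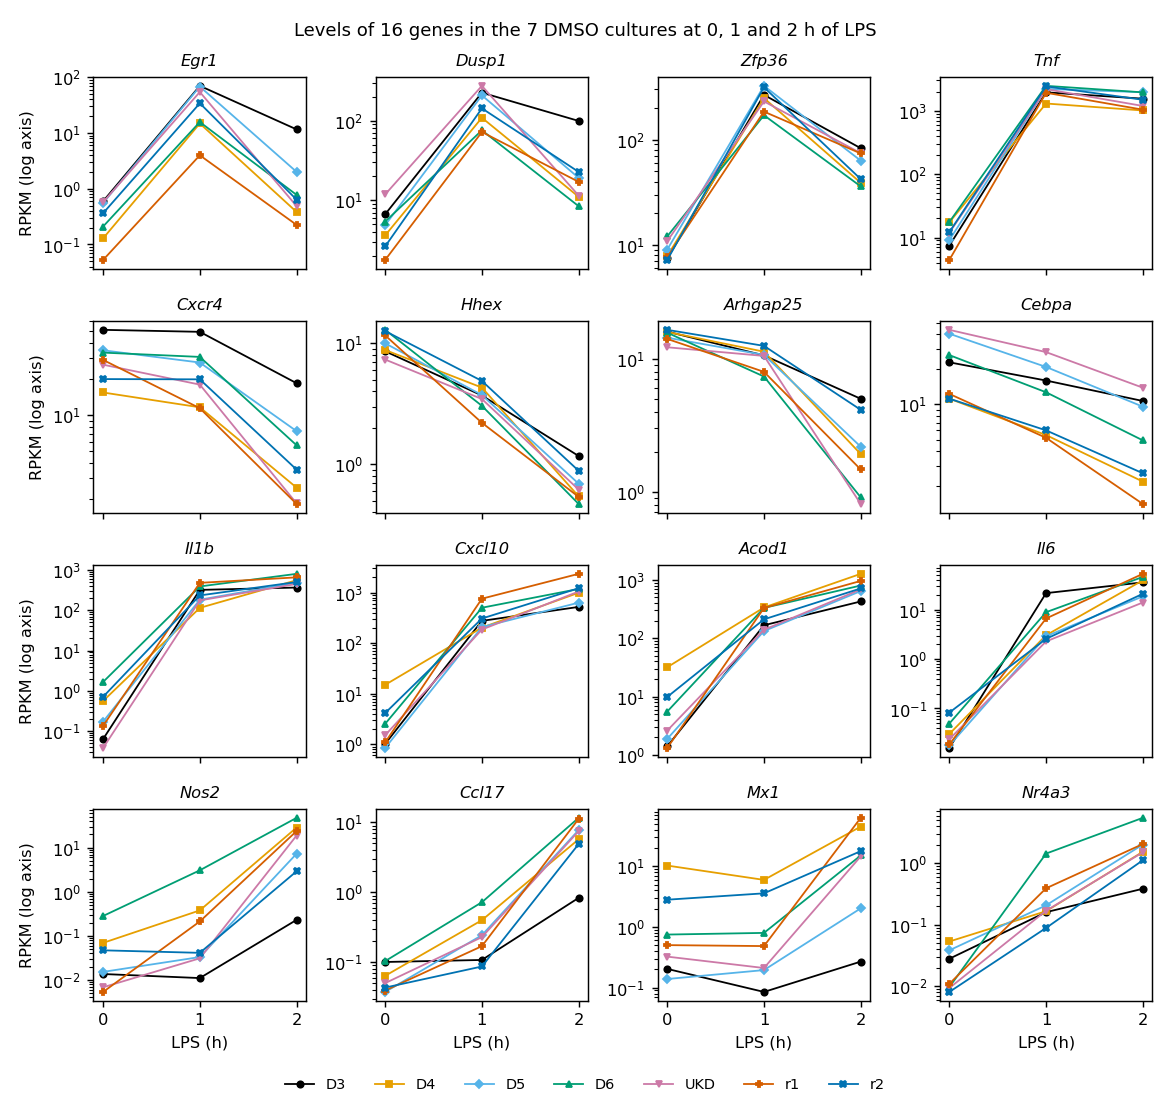
Levels of 16 genes in each of the 7 DMSO cultures at 0, 1 and 2 h of LPS, in RPKM on log axes, with 1 line per culture. Egr1, Dusp1, Zfp36 and Tnf peaked at 1 h, and Cxcr4, Hhex, Arhgap25 and Cebpa were highest at 0 h. Il1b, Cxcl10, Acod1 and Il6 were up by 1 h and rose further. On the log2(RPKM + 0.5) scale these genes had the larger mean step by 1 h, and Nos2, Ccl17 and Mx1 after 1 h. Nr4a3 was higher at each time.

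The transcripts of these groups differed in build. RefSeq-matched GENCODE M21 transcripts were found for 92.4% of the genes that fell at least 2-fold, 94.5% of those that rose and 89.7% of all genes tested. The 32 fallers raised by 1 h had a median genomic span of 4.92 kb and 3 exons, against 20.7 kb and 9 exons over all genes tested. The 90 fallers near their 0 h level spanned 26.6 kb with 8 exons. The 10 fallers already below their 0 h level spanned 9.56 kb with 3 exons, so 3 exons was not particular to the fallers raised by 1 h. Among the risers, the 72 raised by 1 h spanned 14.2 kb with 7 exons and the 125 later ones 36.6 kb with 9 exons.

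The AU-rich nonamer lay in the 3′ UTR of 10 of 30 fallers raised by 1 h (33.3%), of 14 of 81 fallers near their 0 h level (17.3%), of 0 of the 10 fallers already below it and of 7.01% of 8502 genes tested. It lay in 7 of 67 risers already up at 1 h (10.4%) and in 5 of 111 later risers (4.5%). Such shares depend on 3′ UTR length. Its median was 794 bases in fallers raised by 1 h, 1430 in those near 0 h and 929 over all genes tested. Per kb of 3′ UTR, the nonamer occurred 0.416, 0.127 and 0.0658 times in the same order. The values were 0.139 per kb in risers already up at 1 h and 0.0234 in the later ones. The pentamer ATTTA occurred 3.03 times per kb in the 3′ UTRs of fallers raised by 1 h, against 1.83 per kb over all genes tested, 1.56 per kb in the 90 fallers near their 0 h level, 1.35 per kb in the 10 already below it, 2.02 per kb in the risers already up at 1 h and 1.78 per kb in the later ones. These groups were formed from the same measurements, and the shares are given with no test.

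**Figure D4:**
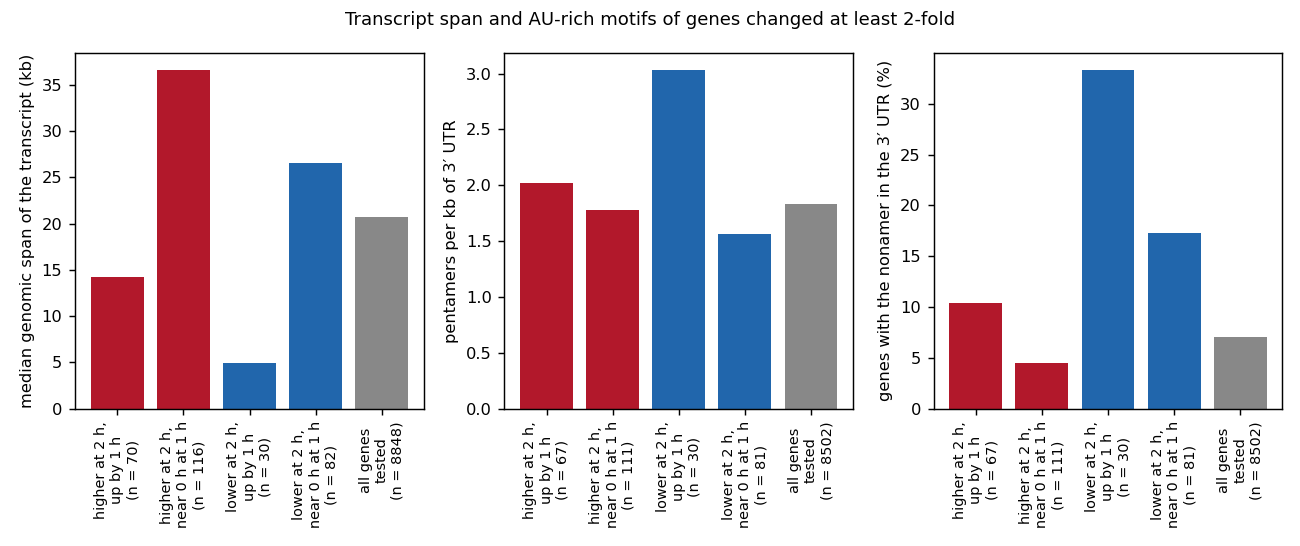
Median genomic span of the transcript (kb, left), AU-rich pentamers per kb of 3′ UTR (middle) and percentage of genes with the AU-rich nonamer (right). Bars are genes at least 2-fold higher (red) or lower (blue) at 2 h, and all genes tested (grey). Coloured bars are split into genes at least 2-fold above 0 h at 1 h and genes within 2-fold of 0 h. The 10 fallers and 2 risers at least 2-fold below 0 h at 1 h have no coloured bar. Fallers raised by 1 h have the shortest span (4.92 kb) and the highest nonamer share (33.3%).

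Immediate-early genes had the lowest median change of the 22 lists. The counts of this and the later lists stand beside 12% called higher and 29.9% called lower over all genes tested. Of 20 tested Egr, Ier, Klf, Nr4a and related genes, 17 fell, 1 rose and 2 did not pass, with a median change of -1.32 against -0.09 for all genes tested. Egr1, a zinc-finger transcription factor induced through the ERK pathway, had 0.225, 0.64 and 11.6 RPKM (lowest, median and highest) at 2 h, against 3.98, 34.1 and 70.0 RPKM at 1 h and a median of 0.364 RPKM at 0 h. The groups overlapped because the 11.6 RPKM of D3 at 2 h exceeded the 3.98 RPKM of r1 at 1 h. Egr1 fell by 4.06 on the log2 scale (SE 0.35, adjusted p = 2.28e-05). It fell in all 7 cultures, which was a condition for the 12 largest falls, here and for Fos and Dusp1 below. Ier3, which encodes a survival protein of the early stress response, had 5.22, 10.5 and 18.7 RPKM at 2 h, against 23.2, 50.7 and 92.5 RPKM at 1 h. Its groups did not overlap, and it fell by 2.30 (SE 0.12, adjusted p = 5.12e-06). Btg2, an antiproliferative protein that recruits the deadenylation machinery, had 3.61, 5.02 and 6.51 RPKM at 2 h, against 16.6, 22.6 and 31.7 RPKM at 1 h, with no overlap. It fell by 2.16 (SE 0.10) and had the smallest adjusted p of all genes, 4.08e-06. The kinase gene Plk3 fell by 1.44, Ier2 by 1.23, Egr2 by 1.49, Myc by 1.60 and Nr4a1 by 1.56.

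The exception in this group was Nr4a3, an orphan nuclear receptor related to Nr4a1. Its level averaged 0.0225 RPKM at 0 h, 0.374 RPKM at 1 h and 2.02 RPKM at 2 h, and it rose by 1.44 in the same cultures in which Nr4a1 fell (adjusted p = 5.71e-05). D3 had the smallest rise of Nr4a3, at 0.42.

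AP-1 genes, whose products bind DNA as Fos and Jun dimers, did not move as a block. Of 11 tested, 6 fell, 1 rose and 4 did not pass (median -0.45). Fos had 0.557, 1.17 and 7.91 RPKM at 2 h, against 3.76, 16.9 and 46.8 RPKM at 1 h, and the median of 1.17 RPKM was below the 6.22 RPKM of 0 h. All 7 cultures fell and the groups overlapped through D3 at 2 h and r1 at 1 h. The fall was 3.09 (SE 0.19, adjusted p = 7.06e-06). Jun had 1.89, 2.94 and 9.16 RPKM at 2 h, against 11.1, 23.2 and 73.4 RPKM at 1 h, without overlap. It fell by 2.76 (SE 0.25, adjusted p = 3.15e-05) and, like Fos, ended below its 0 h median of 12.9 RPKM. Junb remained abundant, at 20.7, 103 and 265 RPKM at 2 h, against 30.8, 131 and 509 RPKM at 1 h. It fell by 0.78 and in 6 of 7 cultures, and Fosl2 by 0.91 in all 7. Batf, a partner of Jun and IRF proteins in lymphoid and myeloid cells, rose by 1.33 in all 7 cultures (adjusted p = 4.62e-05), to 9.03 RPKM at 2 h, against 3.07 RPKM at 1 h (means).

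Feedback inhibitors of MAPK signalling fell in the same hour. Of 11 tested phosphatase, Sprouty and Spred genes, 8 fell, 2 rose and 1 did not pass (median -1.1). Dusp1, the phosphatase that inactivates p38 and JNK, had 8.46, 17.1 and 99.4 RPKM at 2 h, against 72.2, 143 and 274 RPKM at 1 h. The groups overlapped through the single value of 99.4 RPKM of D3, and Dusp1 fell by 2.87 (SE 0.31, adjusted p = 6.78e-05) in all 7 cultures. Dusp5 fell by 1.74 and Dusp8 by 1.36, whose groups did not overlap (0.238 to 1.28 RPKM at 2 h, against 1.52 to 3.02 RPKM at 1 h). Dusp6, an ERK phosphatase, fell by 1.47, with medians of 6.75 RPKM at 0 h, 2.40 RPKM at 1 h and 0.455 RPKM at 2 h. Spred1, an inhibitor of Ras signalling, rose by 0.52 in all 7 cultures, and Dusp16 rose by 0.41 in 6. Without the cultures D4, D6 and UKD, 4 genes of this list fell. Over all genes, that set of cultures gave 557 higher and 1453 lower, in place of 1181 and 2952. List counts given below for that set stand beside this general drop.

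Among 11 genes for mRNA decay factors, 4 fell, 2 rose and 5 did not pass, against 29.9% called lower and 12% called higher over all genes tested. The median of -0.07 lay near that of all genes tested (0.02 after rescaling). All 4 that fell exceeded 2-fold. Zfp36 (tristetraprolin) had 36.0, 63.1 and 82.8 RPKM at 2 h, against 170, 247 and 323 RPKM at 1 h and a median of 7.87 RPKM at 0 h. Its groups did not overlap, and it fell by 2.10 (SE 0.17, adjusted p = 1.72e-05). Its lowest 2 h value exceeded its highest 0 h value, 12.1 RPKM. Its relative Zfp36l2 fell by 2.16 (SE 0.13, adjusted p = 7.06e-06) but with another course, averaging 25.5 RPKM at 0 h, 19.3 RPKM at 1 h and 3.97 RPKM at 2 h. At 1 h its mean within-culture difference from 0 h was -0.40. Zfp36l1 fell by 1.23. Zc3h12a, which encodes the endonuclease regnase-1, rose by 0.78 in all 7 cultures, to a median of 40.8 RPKM at 2 h, against 24.2 RPKM at 1 h.

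Among NF-kB subunits, inhibitors and kinases, changes ran in both directions. Of 18 tested, 11 rose, 4 fell and 3 did not pass (median 0.42). Nfkb1, which encodes p105 and p50, had 37.1, 79.4 and 101 RPKM at 2 h, against 17.6, 21.8 and 35.2 RPKM at 1 h. Its groups did not overlap, and it rose by 1.60 (SE 0.11, adjusted p = 9.1e-06). Nfkb2 rose by 1.26 and Relb by 0.92, both in all 7 cultures. The genes that fell were Nfkbid (-1.14), Tnfaip3 (-0.72), Nfkbiz (-0.55) and Nfkbia (-0.49). Tnfaip3 encodes the ubiquitin-editing inhibitor A20, and Nfkbia the inhibitor IκBα, which NF-kB induces within minutes. Nfkbia averaged 23.7 RPKM at 0 h, 652 RPKM at 1 h and 453 RPKM at 2 h, and its lowest value at 2 h, 346 RPKM, exceeded the highest at 0 h, 35.6 RPKM. Other inhibitors and negative regulators rose, namely Tnip1 (0.91), Nfkbie (0.72), Bcl3 (0.69), Nfkbib (0.65) and Tnip3 (0.32).

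Changes of cytokine genes ranged from -1.53 for Tnfsf9 to 3.45 for Il27. Of 20 tested, 11 rose, 3 fell and 6 did not pass (median 0.72). Il1b, the gene in the title of the series, encodes interleukin-1β and had 367, 503 and 803 RPKM at 2 h, against 115, 234 and 480 RPKM at 1 h and a median of 0.173 RPKM at 0 h. The groups overlapped, all 7 cultures were higher at 2 h, and the within-culture change was 1.12 (SE 0.20, adjusted p = 0.00127). An exact two-sided sign-flip permutation test of the 7 differences gave p = 0.0156, the smallest that 7 pairs allow. The smallest change was 0.19 in D3, with 367 RPKM at 2 h and 321 RPKM at 1 h, and the largest 2.27 in D4, with 558 RPKM at 2 h and 115 RPKM at 1 h. Without the cultures D4, D6 and UKD, whose 1 h libraries were shallow, the change was 0.79 (adjusted p = 0.0327).

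Genes of the IL-12 cytokine family were among the largest rises. Il27, whose product pairs with EBI3, had 2.83, 34.5 and 63.9 RPKM at 2 h, against 0.427, 1.12 and 9.64 RPKM at 1 h. The groups overlapped because D3 had only 2.83 RPKM at 2 h, and Il27 rose by 3.45 (SE 0.33, adjusted p = 4.23e-05). Ebi3 rose by 0.75. Il12b, the p40 subunit of IL-12 and IL-23, had 10.9, 152 and 386 RPKM at 2 h, against 1.69, 4.96 and 133 RPKM at 1 h, and rose by 3.28 (SE 0.43, adjusted p = 0.000225). Il23a, at 3.74 RPKM at 2 h and 2.89 RPKM at 1 h, did not pass. Il6 had 14, 35.8 and 53.3 RPKM at 2 h, against 2.28, 3.04 and 21.7 RPKM at 1 h, and rose by 2.44. The 21.7 RPKM at 1 h belonged to D3, whose change of 0.71 stood apart from 2.31 to 3.49 in the other 6. Edn1, which encodes endothelin-1, had 5.29, 12.3 and 14.1 RPKM at 2 h, against 0.524, 1.06 and 2.09 RPKM at 1 h, without overlap, and rose by 2.78 (adjusted p = 7.06e-06). Il15 rose by 1.89 and Tnfsf15 by 2.45.

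Tnf, which encodes tumour necrosis factor, averaged 11.4 RPKM at 0 h, 2070 RPKM at 1 h and 1460 RPKM at 2 h, and fell by 0.52 (adjusted p = 0.00124). Tnfsf9, the ligand of 4-1BB, fell by 1.53 to 176 RPKM at 2 h, against 467 RPKM at 1 h, and Osm fell by 1.32. Il10, at 3.72 RPKM at 2 h and 2.77 RPKM at 1 h, missed the threshold (adjusted p = 0.0572), as did Csf2 (adjusted p = 0.649) and Lif (adjusted p = 0.324).

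No chemokine gene fell past the threshold: of 17 tested, 14 rose and 3 did not pass (median 1.06). Cxcl3, a neutrophil attractant, had 12.5, 65.9 and 148 RPKM at 2 h, against 3.24, 3.85 and 12.2 RPKM at 1 h. The lowest 2 h value lay just above the highest 1 h value, and Cxcl3 rose by 3.25 (SE 0.27, adjusted p = 2e-05). Ccl5 had 93.3, 302 and 346 RPKM at 2 h, against 9.74, 20.1 and 89.1 RPKM at 1 h, again without overlap, and rose by 3.12 (SE 0.27, adjusted p = 2.22e-05). The highest value at 1 h was that of D4, which already had 61.1 RPKM at 0 h, where the median was 1.02 RPKM. Ccl17, a ligand of CCR4, had 0.833, 7.48 and 11.6 RPKM at 2 h, against 0.0871, 0.229 and 0.722 RPKM at 1 h, and rose by 3.07 (SE 0.28, adjusted p = 3.01e-05). Cx3cl1 rose by 2.03 with no overlap of the groups. Cxcl10, which attracts CXCR3-bearing cells, had 521, 1050 and 2350 RPKM at 2 h, against 186, 276 and 758 RPKM at 1 h, and rose by 1.73. The related genes Cxcl1 and Cxcl2 did not pass. Cxcl1 averaged 310 RPKM at 2 h and 270 RPKM at 1 h (adjusted p = 0.584), and Cxcl2 1080 RPKM at 2 h and 1260 RPKM at 1 h (adjusted p = 0.125). The Cxcl genes are similar in sequence, and reads shared between them could be split by the counting.

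Interferon-stimulated genes had the highest median change of the 22 lists. Of 37 tested, 24 rose, none fell and 13 did not pass (median 1.2), and 19 rose at least 2-fold. Rsad2, which encodes the antiviral enzyme viperin, had 22.5, 121 and 410 RPKM at 2 h, against 3.08, 15 and 28.1 RPKM at 1 h, and rose by 3.07 (SE 0.23, adjusted p = 1.2e-05). The groups overlapped because D3 at 2 h (22.5 RPKM) lay below r1 at 1 h (28.1 RPKM). Mx1 rose by 3.03 (SE 0.52, adjusted p = 0.00113), with 0.269, 15.1 and 63.0 RPKM at 2 h, against 0.0851, 0.485 and 5.98 RPKM at 1 h, and its culture differences ran from 0.39 in D3 to 6.01 in r1. Mx2 rose by 2.78 and Cmpk2 by 2.79. Oasl1 rose by 2.59, Ifi205 by 2.22, Gbp3 by 1.95 and the RNA sensor gene Ifih1 by 2.08, whose groups did not overlap (19.0 to 44.4 RPKM at 2 h, against 2.33 to 14.3 RPKM at 1 h). Mx, Gbp and Ifi200 genes have close relatives, so reads may be split among them. Bst2, at 97.1 RPKM at 2 h and 98.1 RPKM at 1 h, Oas2, Oas3 and Trim30a were among the 13 that did not pass.

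Cultures differed in these genes before LPS. The median level of the interferon list at 0 h was 14.5 RPKM in D4, and from 0.916 RPKM in D3 to 5.65 RPKM in r2 in the other 6 cultures. The median change of the list ran from 0.34 in D3 and r2 to 2.26 in UKD. Without the cultures D4, D6 and UKD, 14 of the list's genes rose in place of 24, with a median of 1.21. Over all genes, 557 rose in that set in place of 1181.

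Genes for interferon beta, IRF and STAT proteins passed at about the rate of all genes tested, of which 41.9% passed (12% higher and 29.9% lower). Of 15 interferon, IRF and STAT pathway genes, 4 rose, 2 fell and 9 did not pass (median 0.12). Ifnb1 averaged 0.0433 RPKM at 0 h, 6.39 RPKM at 1 h and 7.87 RPKM at 2 h, and was higher at 2 h in 4 of 7 cultures (adjusted p = 0.422). Irf1 averaged 133 RPKM at 2 h and 144 RPKM at 1 h (adjusted p = 0.227), and Irf7 19.8 RPKM at 2 h and 17.7 RPKM at 1 h (adjusted p = 0.113). The tyrosine kinase gene Jak2 had 20.4, 28.8 and 40.0 RPKM at 2 h, against 4.04, 7.67 and 11.1 RPKM at 1 h, without overlap, and rose by 1.92 (adjusted p = 2.74e-05). Stat5a rose by 1.43 and Irf5 by 0.42. Irf8, a lineage factor of monocytes, fell by 0.76 (adjusted p = 0.0125) in 6 of 7 cultures. Of 7 suppressors of cytokine signalling, 3 rose and 4 did not pass. Cish rose by 2.54 (adjusted p = 1.2e-05), without overlap, and Socs1 by 2.51, while Socs3 was at 182 RPKM at 2 h and 170 RPKM at 1 h (adjusted p = 0.284).

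**Figure D5:**
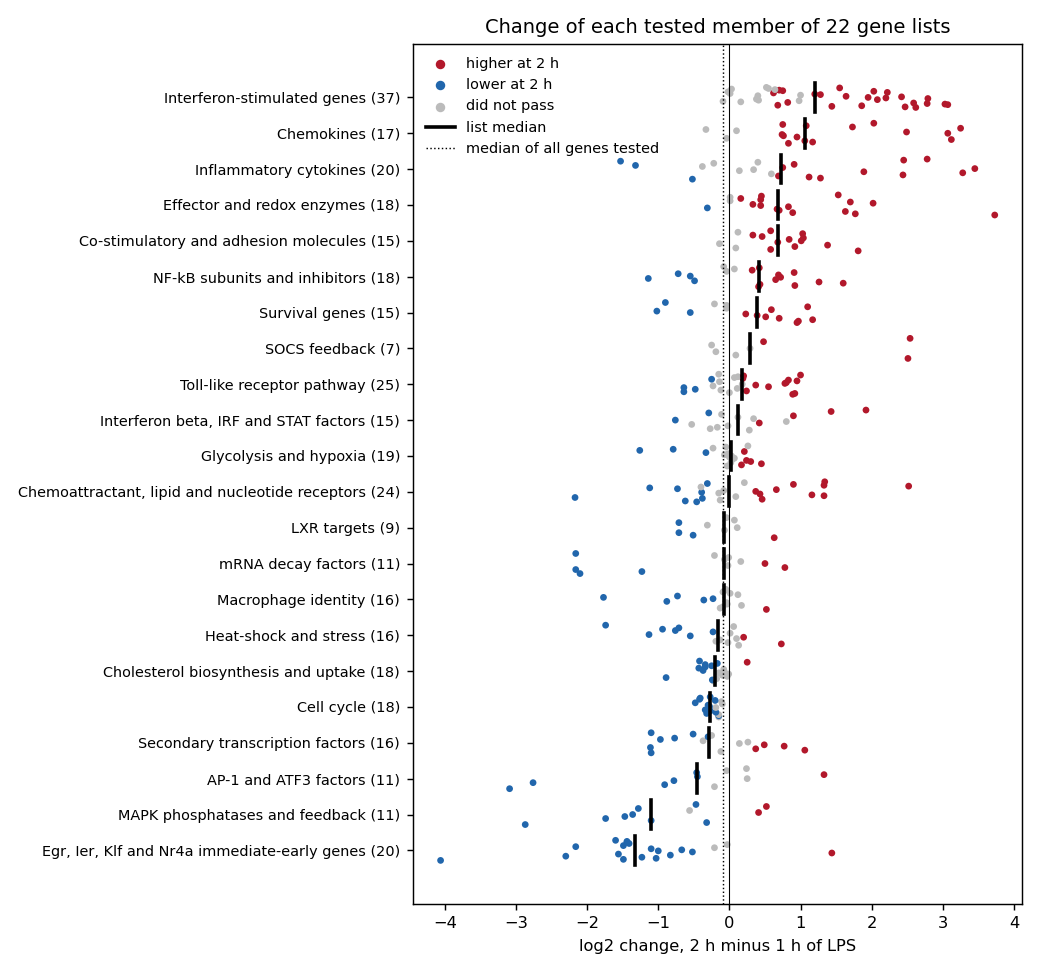
Log2 change of 2 h minus 1 h for each tested member of 22 gene lists, 1 point per gene, with the number tested in parentheses. Red points rose, blue points fell and grey points did not pass, the black tick is the list median and the dotted line the median of all genes tested (-0.09). Interferon-stimulated genes (median 1.2) and chemokines (1.06) lie highest, and immediate-early genes (-1.32) and MAPK phosphatases (-1.1) lowest.

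Of 18 effector and redox enzymes, 15 rose, 1 fell and 2 did not pass (median 0.69). Nos2, the inducible nitric oxide synthase, had the largest rise of all genes that moved the same way in every culture, 3.73 (SE 0.49, adjusted p = 0.000211). Its levels were 0.23, 18.8 and 47.6 RPKM at 2 h, against 0.011, 0.0411 and 3.07 RPKM at 1 h, and the groups overlapped because D3 had only 0.23 RPKM at 2 h. The 1 h median of 0.0411 RPKM is below 0.0926 RPKM, and the log2(RPKM + 0.5) scale understates such a change. Slc7a2, which imports the arginine that Nos2 uses, rose by 2.02 (SE 0.13, adjusted p = 7.06e-06) without overlap. Acod1, which makes itaconate, had 427, 714 and 1270 RPKM at 2 h, against 133, 211 and 337 RPKM at 1 h, also without overlap, and rose by 1.77. Slc7a11 rose by 1.70, the prostaglandin E synthase gene Ptges by 1.63 and Ch25h, which makes 25-hydroxycholesterol, by 1.53. The member that fell was Hmox1 (-0.31), which no longer passed after rescaling.

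Other large rises outside these families were AW112010 (2.99), a transcript of unsettled coding status in mouse, and Hivep3 (2.82), a zinc-finger protein that binds kB-like sites. Hivep3 had 4.66, 12.2 and 23.3 RPKM at 2 h, against 0.43, 0.971 and 3.53 RPKM at 1 h, without overlap (SE 0.20, adjusted p = 9.28e-06).

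Surface molecules for T cell help and adhesion rose in 12 of 15 tested genes, and 3 did not pass (median 0.68). Cd40 had 29.6, 90 and 144 RPKM at 2 h, against 9.89, 21.3 and 58.9 RPKM at 1 h, and rose by 1.81 (adjusted p = 7.68e-06). Tnfrsf1b rose by 1.03, Cd44 by 1.04, Slamf7 by 1.01 and Icam1 by 0.92. Cd83 and Cd86 did not pass. Without the cultures D4, D6 and UKD, 7 of the 15 rose.

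Survival genes rose in 9 cases and fell in 3 of 15 (median 0.39), against 12% called higher and 29.9% called lower over all genes tested. Traf1 rose by 1.10, and Bcl2a1d and Bcl2a1b by 1.17 and 0.97, though these near-identical copies share reads. Mcl1 went the other way, with 104, 115 and 144 RPKM at 2 h, against 149, 170 and 207 RPKM at 1 h, and fell by 0.55 with no overlap of the groups (adjusted p = 4.67e-05). The BH3-only gene Pmaip1 fell by 0.90.

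Receptors that sense microbes changed in both directions. Of 25 genes of the Toll-like receptor pathway, 12 rose, 4 fell and 9 did not pass (median 0.18). The shares over all genes tested were 12% higher and 29.9% lower. Tlr2, the sensor of lipoproteins, had 198, 230 and 306 RPKM at 2 h, against 89.0, 112 and 195 RPKM at 1 h, and rose by 0.92 without overlap. Cd14 rose by 0.55. Tlr4, the receptor for LPS itself, averaged 3.59 RPKM at 2 h and 5.67 RPKM at 1 h, and fell by 0.64 in all 7 cultures (adjusted p = 0.000777). Tlr13, a sensor of bacterial ribosomal RNA in mice, fell by 0.64. The negative regulator Irak3 rose by 0.83 without overlap, as did Irak2 by 0.95 and Ikbke by 1.00 with overlapping groups. Without the cultures D4, D6 and UKD, 6 genes of the list rose.

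Of 24 receptors for chemoattractants, lipids and nucleotides, 10 rose, 8 fell and 6 did not pass (median 0). Over all genes tested, 12% were called higher and 29.9% lower. After rescaling 5 fell, and without the cultures D4, D6 and UKD 2 fell. Cxcr4, the receptor of CXCL12 that retains cells in the marrow, had 1.83, 3.53 and 18.4 RPKM at 2 h, against 11.4, 19.8 and 49.1 RPKM at 1 h and a median of 28.7 RPKM at 0 h. It fell by 2.17 (SE 0.15, adjusted p = 9.1e-06), with overlap through D3. The adenosine receptor gene Adora2a rose by 2.52 (adjusted p = 9.74e-06) and Adora2b by 1.33, to medians of 6.35 and 15.4 RPKM at 2 h, against 0.518 and 4.35 RPKM at 1 h. The sphingosine-1-phosphate receptor gene S1pr1 fell by 1.12, and Gpr84, a receptor for medium-chain fatty acids, rose by 0.66.

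Of 16 macrophage identity genes, 5 fell, 1 rose and 10 did not pass (median -0.08, and 0.02 after rescaling). Over all genes tested, 29.9% were called lower, so the count of falls lay near that share. After rescaling, and also without the cultures D4, D6 and UKD, 3 fell. Maf, a transcription factor of macrophages, had 2.15, 6.28 and 10.1 RPKM at 2 h, against 3.86, 10.6 and 17.6 RPKM at 1 h. Its groups overlapped, and it fell by 0.73 in all 7 cultures (SE 0.08, adjusted p = 7.73e-05). Mertk, a receptor for apoptotic cells, fell by 0.88. Csf1r, the receptor for M-CSF, averaged 238 RPKM at 2 h and 261 RPKM at 1 h and did not pass (adjusted p = 0.0965), and Lyz2, Cd68 and Ctsd did not pass either. Spi1, which encodes PU.1, rose by 0.52 in all 7 cultures.

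Other regulators fell too. Hhex, a homeobox factor, had 0.47, 0.618 and 1.17 RPKM at 2 h, against 2.20, 3.70 and 4.88 RPKM at 1 h and a median of 9.98 RPKM at 0 h, with no overlap, and fell by 1.77 (SE 0.11, adjusted p = 7.06e-06). Arhgap25, a GTPase-activating protein of blood cells, had 0.809, 1.92 and 5 RPKM at 2 h, against 7.35, 10.6 and 12.5 RPKM at 1 h and a median of 15.7 RPKM at 0 h, and fell by 2.07 (SE 0.20, adjusted p = 3.9e-05), also without overlap. Among 16 secondary transcription factors, 7 fell, 4 rose and 5 did not pass (median -0.28), and 4 fell without the cultures D4, D6 and UKD. The shares over all genes tested were 29.9% lower and 12% higher. Cebpa fell by 1.10, while its family member Cebpd rose by 1.06 in 6 of 7 cultures and Cebpb, at 60.2 RPKM at 2 h and 62.9 RPKM at 1 h, did not pass. Id2 fell by 0.97 without overlap, Id3 by 0.77 and Bhlhe40 by 1.11. Ets2 rose by 0.77.

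Metabolic genes had medians near that of all genes. Of 19 genes of glycolysis and hypoxia, 5 rose, 3 fell and 11 did not pass (median 0.02). The glucose transporter gene Slc2a1 rose by 0.45, Pfkp by 0.30 and Pfkl by 0.24, and Pdk1 fell by 0.33. Vegfa was the outlying member and fell by 1.26 in all 7 cultures, to a median of 1.44 RPKM at 2 h, against 5.82 RPKM at 1 h. In cholesterol synthesis and uptake, 9 of 18 genes fell, 1 rose and 8 did not pass (median -0.2), led by Insig1 (-0.89), while Srebf2 rose by 0.25. After rescaling 6 fell. Of 9 targets of the liver X receptors, 3 fell, 1 rose and 5 did not pass (median -0.07, and 0.02 after rescaling). These counts lay near the 29.9% called lower and 12% called higher over all genes tested. Scd2 fell by 0.71, Mylip by 0.71 and Abcg1 by 0.51, and Abca1 rose by 0.63.

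Of 16 heat-shock and stress genes, 7 fell, 2 rose and 7 did not pass (median -0.16), and 4 fell without the cultures D4, D6 and UKD. Of all genes tested, 29.9% were called lower and 12% higher, with a median of -0.09. Ddit4 fell by 1.13, Sesn2 by 0.94, Trib3 by 0.76 and Ddit3 by 0.55. Gdf15 fell by 1.74 in 6 of 7 cultures, with 4.15, 26.7 and 213 RPKM at 2 h, against 11.5, 100 and 406 RPKM at 1 h, and did not pass without the cultures D4, D6 and UKD. Of 18 cell cycle genes, 13 fell, none rose and 5 did not pass, at a median of only -0.27. Rrm2, a subunit of ribonucleotide reductase, fell by 0.48 and the cyclin gene Ccna2 by 0.32. After rescaling 7 fell, and 3 fell without the cultures D4, D6 and UKD.

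The same hour was compared between MPH and DMSO, since MPH was the other condition given to these cells. The change between 1 h and 2 h differed for 3 of 10052 genes (0.0298%) in a limma fit of 20 libraries, and 1055 genes reached an unadjusted p of 0.05. All 3 changed more positively with MPH. Arhgap31, a GTPase-activating protein for Rac and Cdc42, averaged 22.8 ± 3.42 RPKM at 2 h and 6.74 ± 0.0641 RPKM at 1 h with MPH (SD, n = 3), against 14.8 ± 4.12 RPKM at 2 h and 8.5 ± 2.39 RPKM at 1 h with DMSO (SD, n = 7). Its log2 change was 1.67 with MPH and 0.77 with DMSO, a difference of 0.90 (SE 0.11, adjusted p = 0.0247). Rnf144b, a ubiquitin ligase gene, changed by 0.10 with MPH and by -1.22 with DMSO, a difference of 1.32 (SE 0.18, adjusted p = 0.0247), with 1.01 RPKM at 2 h and 0.946 RPKM at 1 h with MPH, against 0.601 RPKM at 2 h and 2.12 RPKM at 1 h with DMSO. Crybg3 changed by 1.16 with MPH and by 0.23 with DMSO, a difference of 0.93 (SE 0.13, adjusted p = 0.0247). Cyth3 (0.78) and Map4k4 (0.95) came next and did not pass (adjusted p = 0.0956 for both). These calls depended on the cultures used. None passed without M3, or without UKD, r1 and r2, or without the cultures D4, D6 and UKD, and 18 genes passed without M2.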

How the data were processed

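The deposited table of bone marrow-derived macrophage RNA holds RPKM values that the authors calculated, on 44401 lines, each a RefSeq transcript. FastQC, cutadapt, HISAT2, SAMtools and the build mm9 are named per the submitters' processing notes. The counting program, its annotation and its use of strand are, in the sources used here, not given. No value equals 0. Depth was inferred from steps among the lowest values, with lengths from GENCODE M21.

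For each of 24761 symbols the line with the highest mean was kept, and log2(RPKM + 0.5) of the 14 libraries was fitted with limma-trend (limma 3.58.1, R 4.3.3), with culture as a replicate block. Genes had at least 1 RPKM in at least 3 libraries, adjustment was by Benjamini-Hochberg over all 9863 genes, and the threshold was 0.05. Gene p-values come from limma and SEs are on the log2 scale. Log2 changes of low genes are understated by the pseudocount of 0.5. The difference between MPH and DMSO was the time by treatment term of a fit of 20 libraries.

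The culture names pair the libraries: the deviations of a culture's 2 h and 1 h libraries from their group means correlated at 0.712 to 0.879 over 9863 genes, above every correlation with another culture (at most 0.66). The members and lists were chosen with earlier results of these data known. Genes were named by rule: Il1b, then the 12 largest called rises and the 12 largest called falls with 1 direction in 7 of 7 cultures, up to 5 called members of each list by smallest p and, for MPH, the 5 smallest p. Other genes are named for their values. Scripts were tested on simulated data. Transcripts were matched by RefSeq identifier to GENCODE M21, and promoter windows by symbol to RefSeq (GRCm38.p6). No coordinates were converted from mm9. Of the symbols in the lists, 1 was not analysed here, and some named genes are not reported here. Alternatives were other pseudocounts, filters, scalings, covariates and sets of cultures. The set without D4, D6 and UKD was chosen after seeing the data.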

Additional observations from a re-analysis of the deposited data

Results flagged for a closer look

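Within-culture changes of 114 named genes were screened for 1 culture standing apart from the other 6 (Dixon's ratio above its 95% critical value). Chance flags about 1 in 20 such groups, and 7 were found. For 5 of the 7 the culture was D3, which had the change nearest to 0 in Tnfsf15 (0.87, against 2.14 to 3.07 in the others), Il6 (0.71, against 2.31 to 3.49), Slamf7 (0.28, against 0.91 to 1.34), Bcl2a1d (0.34, against 1.07 to 1.55) and Scd2 (-0.35, against -0.88 to -0.66). In r1, Irf8 changed by 0.70, against -1.35 to -0.55 in the others, and Id3 by -1.53, against -0.85 to -0.44.

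The change between 1 h and 2 h differed between MPH and DMSO, by a test of the difference, for Arhgap31 (0.90), Rnf144b (1.32) and Crybg3 (0.93). In each the change was more positive with MPH, and the mean level at 1 h was lower with MPH than with DMSO. As given above, these calls depended on the cultures used.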

How the results depend on the processing

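All 116 named genes kept their direction under the 20 alternatives, where each could be fitted. This says little, because apart from Il1b they were named for the same direction in every culture or for a small p. A gene with the same direction in every culture keeps it when cultures are left out. Fits with no replicate block used the same libraries, so direction was not tested there either. Some genes lost the threshold: 41 with time alone, 29 with the name series and 15 with UKD, r1 and r2 alone. It was lost by 13 without D4, D6 and UKD, 6 with D3 to D6 alone, 2 after rescaling and 1 with no filter. Il1b passed in each alternative, with a change of 0.79 to 1.27. Paired against unpaired fits differed most. With no replicate block and time alone, 376 genes were higher and 716 lower, and with the name series as a covariate 523 and 1118. Median-of-ratios scaling gave 1798 higher and 1945 lower, and a filter of 5 RPKM gave 1560 lower. With the 0 h libraries added to the fit (all 21 DMSO libraries), 1388 were higher and 3478 lower. The cultures D3 to D6 alone gave 698 and 1471, UKD, r1 and r2 alone 659 and 1109, and the set without D4, D6 and UKD 557 and 1453. Leaving out 1 culture gave 980 to 1440 higher, 2303 to 3279 lower and 0.93 to 1.27 for Il1b. For the MPH difference, 0 genes passed with D3 to D6 and M2 to M4 alone, 0 with no replicate block and 0 without D4, D6 and UKD (limma), while leaving out 1 MPH culture gave 0 to 18. Depth limits low genes, since a single read on 2 kb was worth 0.0926 RPKM in D6 at 1 h. The causes of these differences were not tested. Some alternatives also had fewer samples or genes in the fit, and the effect of that was not tested apart.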

Other observations

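Some genes outside the lists were named after their values were seen. Of the 10 fallers that stood at least 2-fold below 0 h at 1 h already, 5 are given here. Cd300lb averaged 38.4 RPKM at 0 h, 12.9 RPKM at 1 h and 4.03 RPKM at 2 h. At the same times the cannabinoid receptor gene Cnr2 averaged 4.75, 1.53 and 0.289 RPKM, the lysophosphatidic acid receptor gene Lpar6 4.41, 1.91 and 0.406 RPKM, Gpr146 3.73, 1.31 and 0.313 RPKM, and Rgs2 25.5, 12.2 and 4.85 RPKM. Their log2 changes at 2 h against 1 h were -1.67 for Cd300lb, -1.37 for Cnr2, -1.42 for Lpar6, -1.13 for Gpr146 and -1.37 for Rgs2. Among the risers, the acute-phase gene Saa3 averaged 189 RPKM at 2 h and 32.7 RPKM at 1 h (2.66), the complement gene C3 31.0 RPKM at 2 h and 12.1 RPKM at 1 h (1.25), the collagenase gene Mmp13 57.0 RPKM at 2 h and 17.7 RPKM at 1 h (1.71), and the histidine decarboxylase gene Hdc 1.02 RPKM at 2 h and 0.125 RPKM at 1 h (1.16).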
